A study of Apis mellifera with 6 samples.

Results

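CytC and Hsc70-5 are nuclear genes for mitochondrial proteins, and they were examined in the midgut of honey bees (Apis mellifera) fed tunicamycin. They are 2 of the 10013 genes listed in the deposited tables, found by their symbols, and were chosen by their difference between the groups, both being higher under tunicamycin. Cytochrome c, the product of CytC, is a small heme protein of the space between the mitochondrial membranes. It carries electrons from complex III to complex IV of the respiratory chain, and in vertebrates its release into the cytosol starts the assembly of the apoptosome. Hsc70-5 is the HSP70 chaperone of the mitochondrial matrix, called mortalin in vertebrates. It draws newly made proteins through the inner membrane, helps to fold them and takes part in the making of iron-sulfur clusters. Tunicamycin blocks the first step of N-glycosylation, so that misfolded proteins build up in the endoplasmic reticulum (ER), a compartment to which neither of these proteins belongs.

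The title of the series is about IRE1, a sensor of the unfolded protein response (the ER's own stress pathway), in the honey bee. Bees of the treated group took sucrose solution with 24 µM tunicamycin in 0.5% DMSO (dimethyl sulfoxide, the solvent), and bees of the control group took 0.5% DMSO alone, both for 24 hours. The 3 control samples are numbered 1, 2 and 3 and the 3 tunicamycin samples 2, 3 and 4. The labels give no strain, age or colony of the bees and do not say how many midguts made up a sample or whether replicates came from separate cages, so the p-values rest on a spread between samples that could be technical.

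Values are normalised read counts, that is, reads per gene divided by a factor for the depth of the sample. They compare samples for 1 gene and not genes with each other, since they take no account of transcript length. The samples held between 22763496 and 26278751 reads over the listed genes. Of 5 midgut markers, 3 were found by symbol, all alpha-glucosidases, and their summed level was 1103657 to 1592447 in controls and 701920 to 1302930 in tunicamycin. Of 8 muscle markers 4 were found, at a summed 2642 to 4930 and 3206 to 5767, and of 8 fat body and hypopharyngeal gland markers 6 were found, at 1475 to 2458 and 1412 to 1891. The hemocyte marker PPO, 1 of 2 sought, lay between 59.6 and 71.9 in controls and between 42.5 and 67.9 in tunicamycin. The enteroendocrine and neuronal markers, 3 of 5, summed to 619 to 750 and 709 to 1118. None of these 17 markers passed the test described below, none was at 0, and markers of Malpighian tubule and trachea were not analysed here. Log2 fold changes ran from -0.84 to -0.30 in midgut markers and from 0.19 to 0.52 in enteroendocrine and neuronal ones. They ran from -0.77 to 0.37 in muscle and from -0.80 to 0.03 in fat body and gland markers. In Hbg3, Hex70a and TpnCIIIb every tunicamycin sample lay below every control, as in 10.7% of all genes. DESeq2, an alternative test, called Hbg3 (adjusted p = 0.0278). Control 1 stood apart from the other controls in several genes named below, and values without it are given for some of them.

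CytC was at 6309, 3925 and 3902 normalised reads in controls 1, 2 and 3, against 10656, 11690 and 13544 in tunicamycin samples 2, 3 and 4. The lowest tunicamycin sample was 1.69 times the highest control, so the groups did not overlap, and control 1 was the high one among the controls. The means were 4712 ± 1383 in controls and 11963 ± 1463 in tunicamycin (SD, n = 3 each). On the log2(value + 1) scale, which is used for all fold changes here, the difference of means was 1.38 (SE 0.21), or 2.59-fold. Without control 1 it was 1.60.

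Hsc70-5 was at 5501, 5132 and 4982 normalised reads in controls 1, 2 and 3, against 7164, 10648 and 11752 in tunicamycin samples 2, 3 and 4. Here too the groups did not overlap, and tunicamycin sample 2, at 1.30 times the highest control, lay nearer to the controls than to the rest of its group. The means were 5205 ± 267 and 9855 ± 2395 (SD, n = 3 each), with a log2 fold change of 0.89 (SE 0.19), or 1.85-fold. These values chose the genes, so no test of them is given. Among all 10013 genes, 11.0% had every tunicamycin sample above every control. In each group the sample highest in both genes had the lowest sum of the midgut markers. That sum was 1103657 in control 1 against 1320465 and 1592447 in controls 2 and 3, and 701920 in tunicamycin sample 4 against 1161824 and 1302930 in samples 2 and 3. The part of this in the levels of CytC and Hsc70-5 was not tested.

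**Figure D1:**
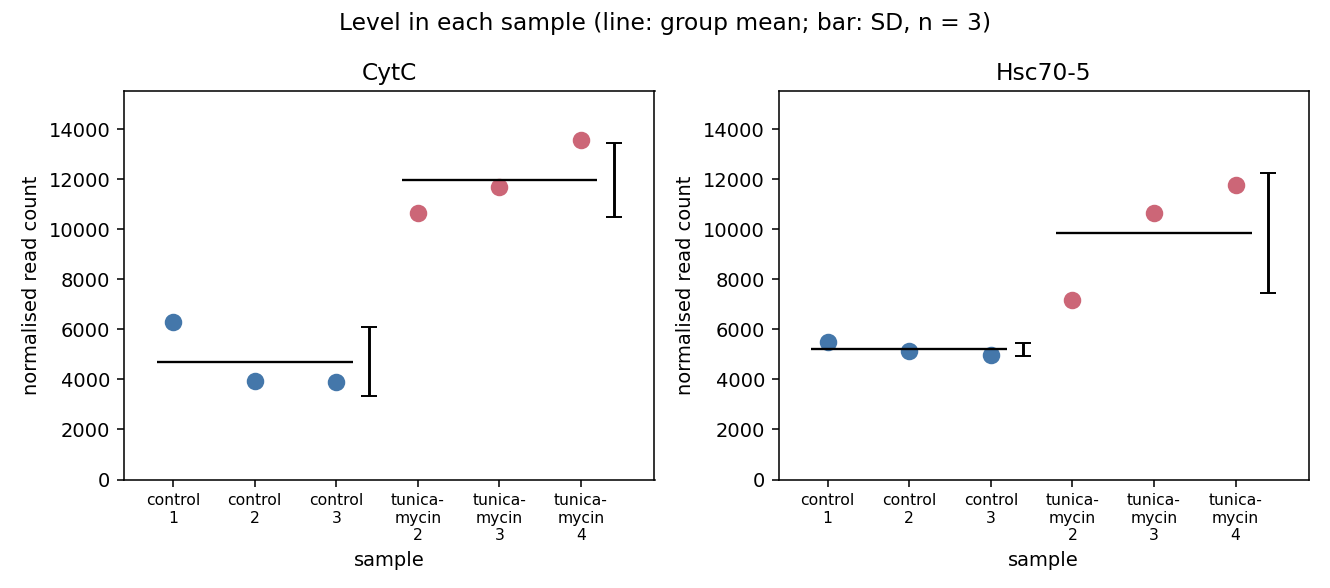
Normalised read count (y axis, from 0) of CytC and Hsc70-5 in each of the 6 samples (x axis); points are samples, horizontal lines group means and bars the SD (n = 3). All tunicamycin points lie above all control points in both panels; control 1 is high for CytC at 6309, and tunicamycin 2 is low for Hsc70-5 at 7164.

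Midgut tissue was sequenced as a whole, so that more cells of a type and more RNA per cell cannot be told apart. Both genes were well covered. CytC was counted with between 4017 and 14364 reads in a sample and Hsc70-5 with between 5129 and 12464, which puts the error of read counting alone at between 0.834% and 1.58% of a value. These reads carry no molecular identifiers, so that error covers counting only. By mean normalised read count over the 6 samples CytC ranked 370 and Hsc70-5 419 among the 10013 genes. These are ranks of read counts, which also depend on transcript length. By log2 fold change they ranked 152 and 443. Set beside genes of similar level, within a factor of 2 of its own mean, CytC had the rank 11 of 569 and Hsc70-5 the rank 30 of 612. Both genes were chosen for being higher, so a high rank in fold change comes with the choice and is description only. In those genes of similar level the share with every tunicamycin sample above every control was 21.6% and 20.9%, and the median log2 fold change was 0.09 and 0.08.

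**Figure D2:**
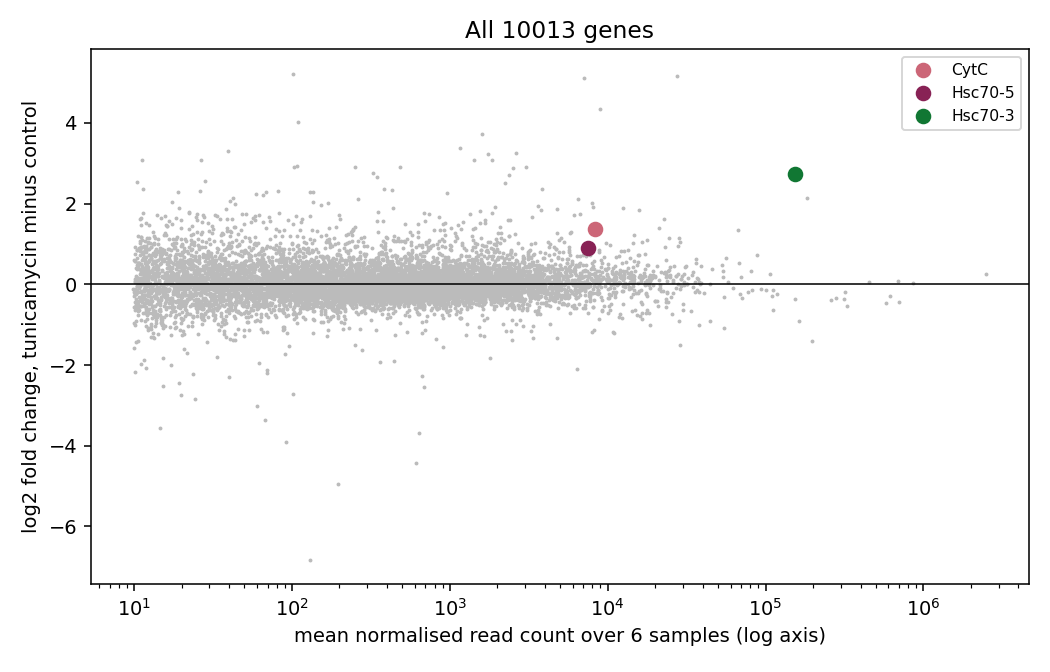
Log2 fold change of tunicamycin over control (y axis) against the mean normalised read count over 6 samples (x axis, log scale), each grey point 1 of 10013 genes. CytC (1.38) and Hsc70-5 (0.89) lie close to each other in read count and below Hsc70-3 (2.73) in both read count and fold change.

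The 2 genes varied in different samples. Among controls the coefficient of variation (SD as a share of the mean) was 29.4% for CytC, above that of 88.2% of the 569 genes of similar level, whose median was 13.3%. Control 1 makes up this spread, since controls 2 and 3 differed by 23.7 normalised reads. For Hsc70-5 the controls varied by 5.13%, less than in most genes of its level, of which 14.4% varied less. In tunicamycin the picture was turned round. Hsc70-5 varied by 24.3%, more than 81.4% of genes of its level, with tunicamycin sample 2 far below samples 3 and 4, while CytC varied by 12.2%, close to the median of 12.8% in its peers. All of this spread exceeded counting error. The chi-square statistic per degree of freedom, which is about 1 where counting alone sets the spread, was 415 and 177 for CytC in controls and tunicamycin and 13.9 and 554 for Hsc70-5.

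The ratio of CytC to Hsc70-5 shows the same samples from another side, since any factor common to a sample cancels. It was 1.15, 0.765 and 0.783 in controls 1, 2 and 3, against 1.49, 1.10 and 1.15 in tunicamycin samples 2, 3 and 4. Control 1 thus lay within the range of tunicamycin samples, and tunicamycin sample 2 had the highest ratio of all. The mean was 0.898 ± 0.216 in controls and 1.25 ± 0.211 in tunicamycin (SD, n = 3 each), and the groups overlapped.

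The 2 genes were then set beside other mitochondrial genes. The tables name most genes by number only. By their symbols 16 other nuclear genes for mitochondrial proteins were picked, a list drawn up after the symbols were seen. They were tested in limma-trend over all 10013 genes at a Benjamini-Hochberg adjusted p under 0.05. That test called 113 genes (1.13%), 106 of them higher in tunicamycin (1.06%) and 7 lower (0.0699%). Of the 16 it called 0. On the reads recovered from the values, edgeR (0.939% of all genes called) and DESeq2 (5.27% called) also called 0 of the 16, and 1 had an unadjusted limma p under 0.05. Their log2 fold changes ran from -0.33 to 0.06, with 4 above zero and 12 below, and a median of -0.12 beside 0.0014 for all genes. In 15 of the 16 the groups overlapped. None had every tunicamycin sample above every control, beside 11.0% of all genes, and 1 had every one below, beside 10.7%. With so few genes these counts lie near those shares and are description only.

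Along the respiratory chain, 7 genes besides CytC were measured by name, at a median log2 fold change of -0.17. In complex I, which takes electrons from NADH, the iron-sulfur subunit gene Ndufs1 was at 2164, 3080 and 1642 normalised reads in controls 1, 2 and 3, against 1403, 2437 and 2067 in tunicamycin samples 2, 3 and 4 (log2 fold change -0.21, SE 0.28). The accessory subunit genes Ndufs5 and Ndufb2 were at -0.20 (SE 0.14) and -0.08 (SE 0.11) on the same scale. Uqcr11, for a small subunit of complex III, from which cytochrome c takes its electrons, was at 0.04 (SE 0.14), with 2424 ± 346 normalised reads in controls and 2480 ± 289 in tunicamycin.

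Complex IV, or cytochrome c oxidase, takes the electrons from cytochrome c and hands them to oxygen. Its subunit gene Cox6c was at 6429, 5147 and 4637 normalised reads in controls, against 4685, 4405 and 4185 in tunicamycin samples, with a log2 fold change of -0.28 (SE 0.14; limma adjusted p = 0.411). Controls 1 and 2 lay above all tunicamycin samples, and control 3 fell inside their range. Without control 1 the log2 fold change of Cox6c was -0.14. Cox6b1, a further subunit gene, was at -0.17 (SE 0.11). ATP5G2, for the ring subunit c of ATP synthase, was at 25539 ± 1638 normalised reads in controls and 26485 ± 1604 in tunicamycin (log2 fold change 0.05, SE 0.15).

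Of the genes that build and supply the chain, Pet117, an assembly factor of cytochrome c oxidase, was at a log2 fold change of 0.03 (SE 0.23) and Coq7, of ubiquinone synthesis, at -0.21 (SE 0.19). Ant, the carrier that exchanges ADP and ATP over the inner membrane, was at 29426 ± 5980 and 28417 ± 1078 normalised reads in controls and tunicamycin (log2 fold change -0.03, SE 0.19). Its control 1 was low, at 22560 against 32225 and 33492 in controls 2 and 3, and without it the log2 fold change was -0.21.

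Hsc70-5 acts on proteins that enter through the import pores, and Tom7, a small subunit of the pore complex in the outer membrane, was the import gene found by name. It was at 1142, 1060 and 983 normalised reads in controls, against 1015, 887 and 902 in tunicamycin samples (log2 fold change -0.18, SE 0.11; limma adjusted p = 0.489), with control 3 inside the range of tunicamycin samples. Among genes for proteins of the matrix, PDHB (pyruvate dehydrogenase E1 beta) was at 0.06 (SE 0.14), Sod2 (manganese superoxide dismutase) at -0.0006 (SE 0.13) and ACSF2 (an acyl-CoA synthetase) at -0.33 (SE 0.32). The mitochondrial ribosomal protein gene mRpL16 was at -0.03 (SE 0.11). IF-2mt, for the initiation factor of mitochondrial translation, was the gene of this list whose groups did not overlap, with 1572, 1496 and 1535 normalised reads in controls, against 1382, 1185 and 1158 in tunicamycin samples. Every tunicamycin sample was lower, which was so in 10.7% of all genes, and the difference did not pass (log2 fold change -0.31, SE 0.11; limma adjusted p = 0.252).

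**Figure D3:**
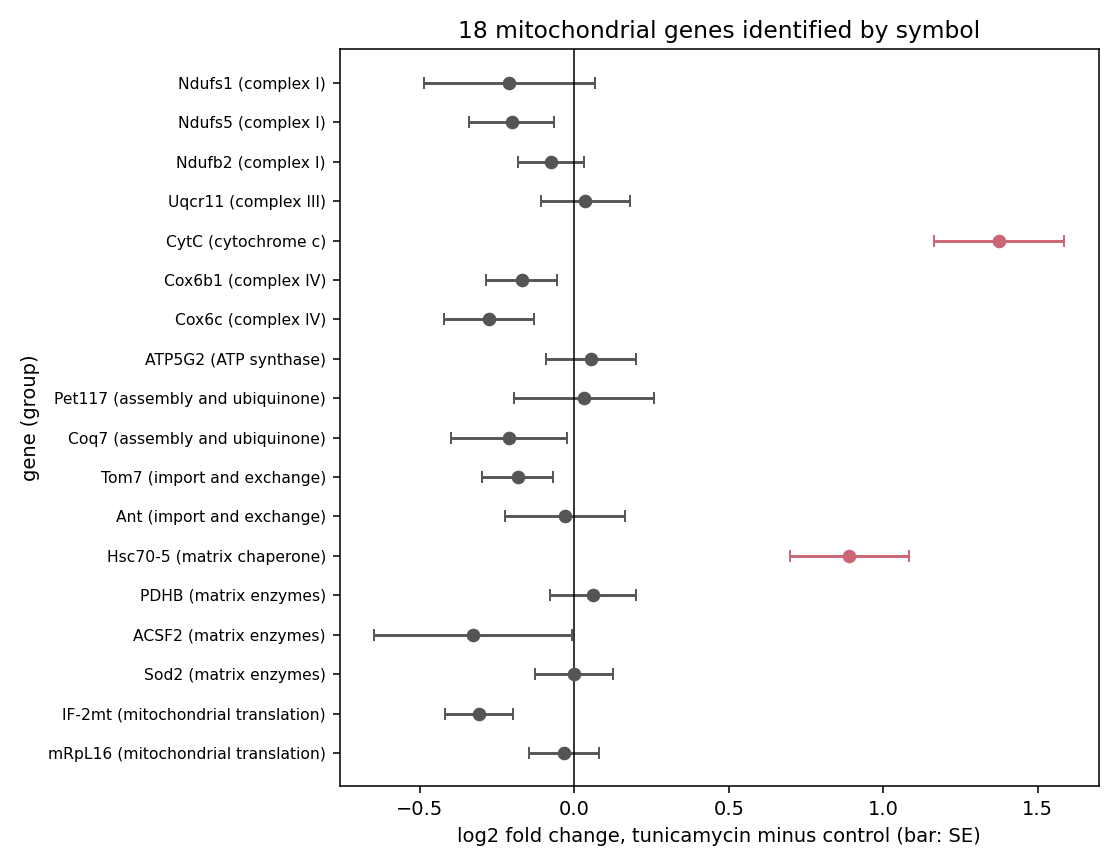
Log2 fold change of tunicamycin over control (x axis, bars SE, 3 samples a group) for 18 mitochondrial genes recognised by symbol (y axis, with their group). CytC (1.38) and Hsc70-5 (0.89), which were chosen for being higher, are drawn in red; the other 16 lie between -0.33 and 0.06.

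Of 9 gene lists drawn up by symbol for mitochondrial function, cell death and chaperones, 4 had a match. The list of the respiratory chain and ATP synthase held CytC and Ndufs1, that of mitochondrial chaperones, proteases and import held Hsc70-5 alone, and that of mitochondrial antioxidants held Sod2 and Gtpx1, a peroxidase gene at -0.24 (SE 0.17). None of these other than the members, which were not tested, passed. Gtpx1 was not part of the later list of mitochondrial genes recognised by symbol. It is thus not in the counts given for that list. The lists of cytochrome c and oxidase assembly, iron-sulfur cluster assembly, the apoptosome with caspases and BCL-2 relatives, mitochondrial DNA maintenance and the TCA cycle had no match by symbol, so these partners of cytochrome c and of Hsc70-5 were not analysed here. The 37 genes of the mitochondrial genome in the reference table were not analysed here either.

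The last list held chaperones outside the mitochondrion, with 3 matches, of which 1 passed. Hsc70-3, the HSP70 of the ER known as BiP, is a classical target of the unfolded protein response and served as the check of the treatment. It rose from 42976 ± 22567 to 265545 ± 52623 normalised reads (SD, n = 3 each), a log2 fold change of 2.73 (SE 0.40; limma adjusted p = 0.0279). edgeR and DESeq2 called it too (adjusted p = 0.0395 and 1.72e-11). In limma leaving out control 1 kept the call (log2 fold change 3.13, adjusted p = 0.0100). Leaving out any of the other samples lost it (adjusted p of up to 0.135). Adding either replicate block lost it too (limma adjusted p = 0.101 by deposited table and 0.112 by shared number). Where the call was lost the log2 fold changes were 2.42 to 3.00. Hsc70-4, the HSP70 of the cytosol, was at 76162, 64725 and 54952 in controls, against 61999, 90219 and 72029 in tunicamycin samples, with overlapping groups (log2 fold change 0.19, SE 0.24; limma adjusted p = 0.745). Hsp90, a further cytosolic chaperone gene, was at -0.21 (SE 0.43) with all samples and at 0.28 without control 1, in which it reached 46743 normalised reads. Of the 3 HSP70 genes with a name, that of the ER was at 6.66-fold, that of the mitochondrial matrix, which was chosen for being higher, at 1.85-fold and that of the cytosol at 1.14-fold. The differences between these fold changes were not tested, and the choice of Hsc70-5 leaves nothing to read from its place among them.

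**Figure D4:**
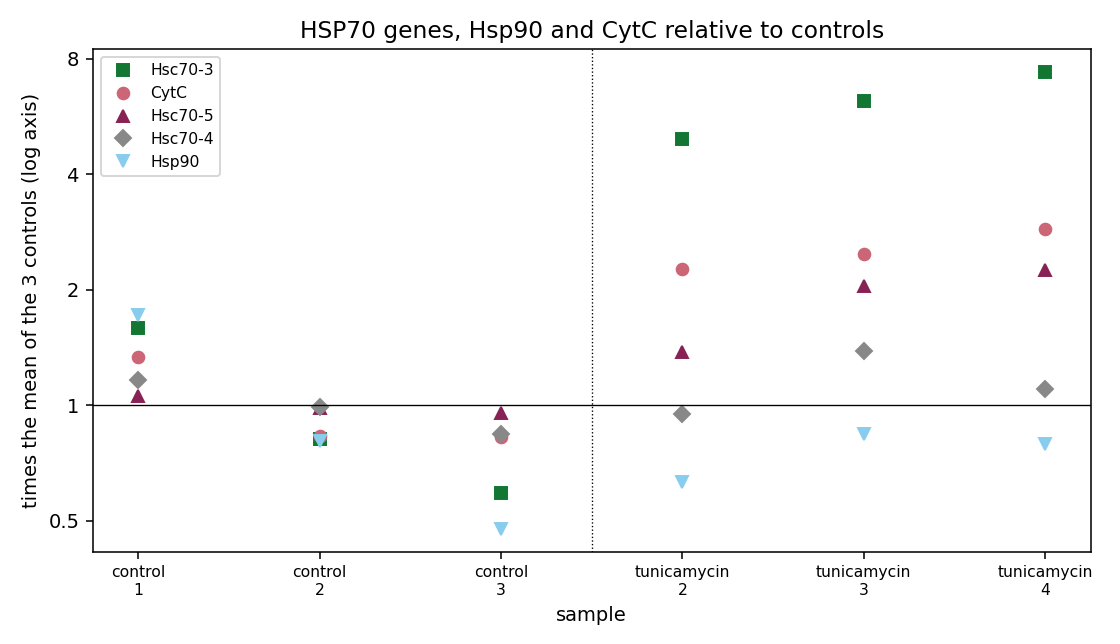
Level of 5 genes in each sample (x axis) as a multiple of the mean of the 3 controls (y axis, log scale). Tunicamycin samples reach 4.93 to 7.38 times the control mean for Hsc70-3, 2.26 to 2.87 times for CytC and 1.38 to 2.26 times for Hsc70-5, while for Hsc70-4 they lie between 0.950 and 1.38 times.

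Within the groups, both members put the samples in the same order as Hsc70-3. Among controls sample 1 was highest and sample 3 lowest in all 3 genes, and among tunicamycin samples sample 4 was highest and sample 2 lowest. This order, in both groups at once, was found in 3.12% of all genes and in 6.06% of the 1106 genes whose tunicamycin samples all lay above all controls. The size of the deviations differed between the members. Control 1 deviated from the mean of its group by 0.46 on the log2 scale for CytC, 0.80 for Hsc70-3 and 0.08 for Hsc70-5, and tunicamycin sample 2 by -0.16, -0.31 and -0.43.

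Measured as Pearson's r of these deviations over the 6 samples, which leaves out the difference between groups, CytC and Hsc70-3 were at 0.95, and 2.45% of the 7434 genes with a mean of at least 100 were closer to CytC. Without control 1 this r was 0.78. Hsc70-5 was at 0.53 with Hsc70-3 and at 0.52 with CytC, values that 18.3% and 18.9% of genes exceeded in their r with Hsc70-5. Seen from CytC, 31.3% of genes were closer to it than Hsc70-5 was. The r of Hsc70-5 with Hsc70-3 and with CytC was 0.79 and 0.89 without control 1. Without tunicamycin sample 2 it was 0.82 and 0.84. With 6 samples and group means removed these values describe the samples at hand and were not tested.

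**Figure D5:**
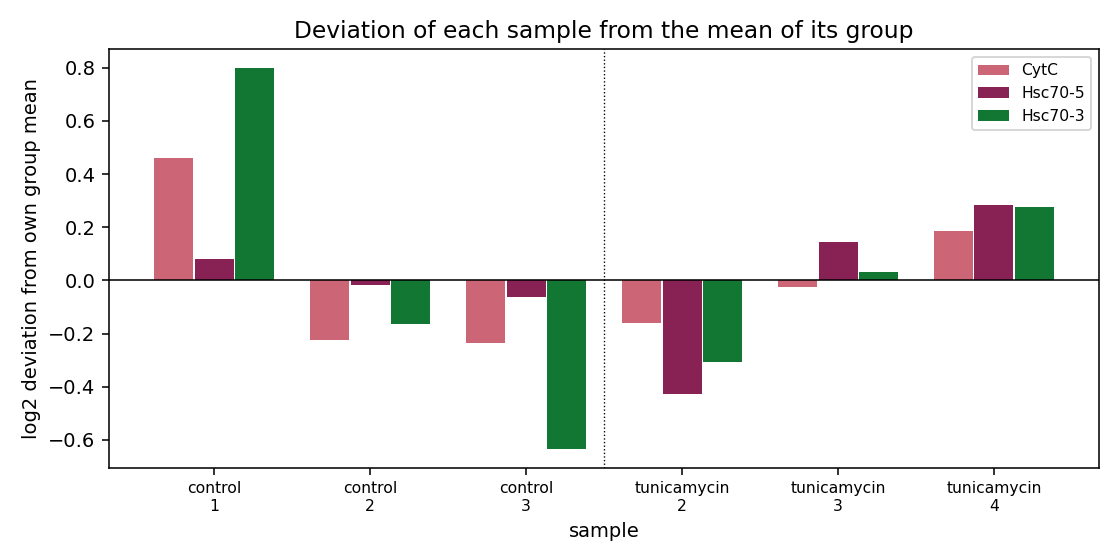
Deviation of each sample (x axis) from the mean of its own group on the log2 scale (y axis) for CytC, Hsc70-5 and Hsc70-3. Control 1 is high for CytC (0.46) and Hsc70-3 (0.80) and near the mean for Hsc70-5 (0.08); tunicamycin 2 is the lowest tunicamycin sample for all 3 genes.

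Over the levels themselves, which include the difference between groups, the 5 genes with a symbol closest to CytC among 217 were Hsc70-3 (Pearson's r 0.99 over 6 samples), Cbs (0.99), Ppib (0.99), ecd (0.98) and RCC1 (0.97). For Hsc70-5 they were ecd (0.96), Cbs (0.95), Tk (0.94), Hsc70-3 (0.92) and CytC (0.92). Cbs encodes cystathionine beta-synthase and Ppib the cyclophilin B of the ER. Of all 7434 genes, 5 were closer to CytC than Hsc70-3 was, and 279 were closer to it than Hsc70-5 was. Over deviations from the group means, the closest to CytC were Snf (0.98), Cdc37 (0.98), Hsc70-3 (0.95), Syt20 (0.95) and Cyp6as5 (0.95). Their log2 fold changes were 0.004, -0.46, 2.73, -0.23 and 0.66 in that order, so these 5 genes did not all share a rise. Those closest to Hsc70-5 were INTS8 (0.94), CPF1 (0.92), Prpf3 (0.92), Tk (0.91) and Tpi (0.90), at log2 fold changes of 0.02, 0.91, -0.05, 0.52 and -0.33. Hsc70-3 was the gene that both kinds of likeness gave for CytC, and Tk the one they gave for Hsc70-5. The kinds are not independent, since the levels also hold the deviations from the group means. The levels hold the difference that chose the members as well. A high r over levels with other raised genes thus comes in part with that choice. Being given by both kinds, and the counts of closer genes over levels, are therefore description only. Tk, the tachykinin gene, is also a marker of enteroendocrine and nerve cells. It was at 176, 163 and 191 normalised reads in controls, against 187, 294 and 298 in tunicamycin samples (log2 fold change 0.52, SE 0.21; limma adjusted p = 0.295), and the part of those cells in the level of Hsc70-5 was not tested.

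Fold changes were also taken within each deposited table, which holds 1 control and 1 tunicamycin sample. CytC was 1.69 times as high in tunicamycin 2 as in control 1, 2.98 times as high in tunicamycin 3 as in control 2 and 3.47 times as high in tunicamycin 4 as in control 3. Hsc70-5 was 1.30, 2.07 and 2.36 times as high in the same order, and Hsc70-3 3.10, 7.61 and 12.5 times. The table with control 1 and tunicamycin 2 gave the smallest multiple for each of the 3 genes. This repeats the order of samples given above, with control 1 the highest control and tunicamycin 2 the lowest of its group. It is no further result.

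The genes next to the members in the assembly Amel_HAv3.1 were read from a reference table, in which none of them overlaps a member. Beside CytC lies LOC107965036, a long non-coding RNA gene, at 844, 980 and 1096 normalised reads in controls, against 1591, 1215 and 1269 in tunicamycin samples. Every tunicamycin sample lay above every control, as in 11.0% of all genes, and the difference did not pass (log2 fold change 0.48, SE 0.15; limma adjusted p = 0.212). Its control 1 was the lowest control, while that of CytC was the highest. The other neighbours of CytC, LOC408271, LOC408269 and LOC551820, were at log2 fold changes of 0.39, 0.42 and -0.31. Around Hsc70-5, Prpf3, LOC724541, LOC551732 and LOC100577959 were at -0.05, -0.03, -0.23 and 0.39. None of the 8 neighbours passed.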

How the data were processed

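Per the labels, midgut RNA was taken up in Trizol, poly(A) RNA was made into libraries (NEBNext Ultra) and an Illumina HiSeq was used. Trimmomatic 0.36, STAR, Subread and DESeq2 stand in the submitters' processing notes. What each tool did, how the counting treated strand and which genome build was used is not given in the sources used here, so genes that overlap or have near-identical copies may share reads. The authors deposited 3 tables of a normalized signal, read counts divided by a size factor per sample, as the values show: 100% came out as whole reads once divided by the worth of 1 read, to within 0.001, in control 1 (worth 0.999914) by large values. Reads recovered in this way came to between 22763496 and 26278751 a sample.

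All listed genes were tested with limma-trend on log2(value + 1) in limma 3.58.1 under R 4.3.3. The fit took 6 samples and group as the term, and no filter on low values was added. Of the 10013 listed genes, 9999 to 10008 were above 0 in each sample. Shares of all genes are thus shares of the listed genes. edgeR 4.0.16 (quasi-likelihood, TMM) and DESeq2 1.42.0 on recovered reads were alternatives, beside 0.1 as pseudocount, a filter at a mean of 1 CPM, TMM and upper-quartile scaling, replicate blocks and leaving out each sample. Before use, the fits were tested on simulated read counts with known fold changes. The members and lists were chosen with earlier results of these data known. The members were chosen by the contrast itself and have no test. Named genes were the members, list members past the threshold or with the largest change, the 5 closest in pattern with a symbol and a mean of at least 100, and the 2 genes on each side in the genome, besides all 16 other mitochondrial genes recognised by symbol, which were added later. Symbols matched the reference table for 9205 of 10013 identifiers, both members among them. Sequence families and promoters were not analysed here.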

Additional observations from a re-analysis of the deposited data

How the results depend on the processing

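The log2 fold change of CytC stayed between 1.26 and 1.60 and that of Hsc70-5 between 0.75 and 1.10 with 1 sample left out. Both moved by less than the spread between replicates under the other limma settings tried. Their positive sign is fixed by their choice. Fold changes of the members from edgeR and DESeq2 were not compared. The count of 113 genes past the threshold stayed within 1.5 times with 0.1 as pseudocount, a filter at a mean of 1 CPM, TMM or upper-quartile scaling and edgeR. DESeq2 called 516, and with 1 sample left out limma called 20 to 202, the highest without control 1; the cause was not tested. Samples of the same table had deviations that correlated at 0.05, 0.15 and 0.05 over genes, where every one over 0.1 was asked for before taking the tables as pairs, and 4 of 6 samples correlated best with their table partner, so whether the tables hold pairs is not settled. A replicate block by deposited table left limma with 44 genes, and with the replicate block by shared number, in 4 samples, 4 (4 higher, 0 lower, 1046 at an unadjusted p under 0.05). Hsc70-3 lost its call in 7 of its 14 alternatives, both blocks included. For the other 18 genes, 16 mitochondrial and 2 chaperones, 0 calls changed. Fold changes that did not pass changed sign in 22 of the 266 alternatives of these genes together. In the block by shared number these were ATP5G2 (-0.021), Pet117 (-0.051), PDHB (-0.075) and Hsp90 (0.24). With 1 sample left out, the lowest and highest were -0.43 and 0.025 for Ndufs1, -0.050 and 0.15 for Uqcr11, -0.0012 and 0.10 for ATP5G2, -0.14 and 0.23 for Pet117, -0.21 and 0.075 for Ant, -0.029 and 0.19 for PDHB, -0.088 and 0.10 for Sod2, -0.11 and 0.023 for mRpL16 and -0.65 and 0.28 for Hsp90. Leaving out samples for the within-group likeness was chosen after seeing the data. It gave an r of 0.78 to 0.99 for CytC with Hsc70-3, 0.46 to 0.82 for Hsc70-5 with Hsc70-3 and 0.40 to 0.89 for CytC with Hsc70-5.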
